A study of Mus musculus with 93 samples.

Results

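The genes described here are 9 mouse genes of Alzheimer disease biology: App, Aplp1 and Aplp2 of the amyloid precursor family, the secretase genes Bace1 and Psen2, the tau gene Mapt, and the risk genes Apoe, Clu and Sorl1. They were chosen by name from the gene column of the 2 deposited expression tables, which list 24528 genes each, and all 9 were found in both tables. The values come from bulk RNA sequencing of cortex (1 hemisphere per mouse) from C57BL/6J mice. WT dams were crossed with Chd8V986*/+ males, so that each litter held WT pups and pups with 1 truncating allele of the chromatin remodeler Chd8 (Het below). Dams ate deltamethrin (DM, a pyrethroid insecticide) at 3 mg/kg in peanut butter, or peanut butter with oil alone, every 3 days from conception.

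At postnatal day (PND) 5 there were 12 WT and 10 Het mice after oil (6 and 5 males), and 12 WT and 10 Het mice after DM (7 and 5 males). Their dams were dosed until PND 5. At 12 months there were 9 WT and 9 Het males after oil, and 10 WT and 10 Het males after DM, exposed until PND 22. Each of these 19 litters gave 1 WT and 1 Het male. At 18 months there were 6 WT and 5 Het males with no exposure. The Het allele is constitutive, so every cell type of the cortex carried it. The tissue was not sorted, and a change in the number of cells of a type cannot be told apart from a change in RNA per cell.

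The App protein is a membrane protein that the beta-secretase Bace1 and the gamma-secretase complex, which contains a presenilin such as Psen2, cut in sequence to release amyloid-beta. Aplp1 and Aplp2 are its paralogs and lack the amyloid-beta sequence. Sorl1 is a sorting receptor that carries App away from the compartments where it is cut, tau binds axonal microtubules, and Apoe and Clu are secreted lipid-binding proteins that astrocytes make in large amounts.

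The values are log2-scale, variance-stabilized expression levels from which batch, sex, dissector and litter rank (litters numbered in the order of their letter) had been removed before deposit without holding the groups apart, as the slopes of 0 on these terms show. Differences between litters beyond that rank remain in them. Each gene's level in the table of PND 5 and 12 months is therefore shifted by an unknown amount, and a level is compared below only between groups of 1 gene and 1 table. Group differences come from a linear model with the same technical terms, fitted to all genes tested (limma), with p-values adjusted by Benjamini-Hochberg over all of them, and an adjusted p under 0.05 counted as a call. The check of the genotype, Chd8 itself, was lower in Het mice in every comparison, by 0.61 ± 0.10 (SE) after oil and 0.69 ± 0.10 after DM at 12 months, and it was lower in the Het mouse of each of the 19 litters.

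On the mouse genome (mm10, GENCODE annotation), all 9 are protein-coding genes. App lies on chromosome 16 (84949685 to 85173766), Psen2 on chromosome 1 (180227004 to 180263438), Mapt on chromosome 11 (104231390 to 104332090) and Clu on chromosome 14 (65968483 to 65981547). Aplp1 (30434982 to 30445535) and Apoe (19696109 to 19699188) share chromosome 7, and Aplp2 (31149557 to 31211815), Sorl1 (41964720 to 42124297) and Bace1 (45838580 to 45864399) share chromosome 9. Their longest coding transcripts range from 1408 bases for Apoe and 1810 for Clu to 8167 for App and 10715 for Sorl1.

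RefSeq promoter entries (GRCm38.p6) matched 6 of the 9 genes, App, Aplp1, Aplp2, Psen2, Apoe and Sorl1. The start meant here is that of the entry, which can differ from the end of the gene span above. The 250 bases before it lie inside the span for Psen2 (chr1:180256301-180256550). They overlap the span for App (chr16:85173708-85173957). The 250 bases before the start are shown for 3 genes, because Aplp2 and Sorl1 varied together with App across mice and Apoe varied against them, as described below. Capitals mark GGGCGG (the core of a GC box, or CCGCCC on the other strand) and CCAAT (or ATTGG), read 5′ to 3′ on the gene's strand.
Aplp2, chr9:31211849-31212098, minus strand: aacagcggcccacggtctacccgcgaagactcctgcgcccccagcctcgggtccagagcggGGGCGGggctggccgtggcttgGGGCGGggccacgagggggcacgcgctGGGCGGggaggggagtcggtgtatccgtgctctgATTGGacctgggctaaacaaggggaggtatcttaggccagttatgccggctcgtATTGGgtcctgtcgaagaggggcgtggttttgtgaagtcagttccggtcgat
Sorl1, chr9:42124298-42124547, minus strand: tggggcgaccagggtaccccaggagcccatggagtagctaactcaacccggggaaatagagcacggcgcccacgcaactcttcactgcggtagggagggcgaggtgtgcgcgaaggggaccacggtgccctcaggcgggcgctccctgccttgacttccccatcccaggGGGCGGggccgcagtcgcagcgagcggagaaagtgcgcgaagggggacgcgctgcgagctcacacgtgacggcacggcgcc
Apoe, chr7:19699189-19699438, minus strand: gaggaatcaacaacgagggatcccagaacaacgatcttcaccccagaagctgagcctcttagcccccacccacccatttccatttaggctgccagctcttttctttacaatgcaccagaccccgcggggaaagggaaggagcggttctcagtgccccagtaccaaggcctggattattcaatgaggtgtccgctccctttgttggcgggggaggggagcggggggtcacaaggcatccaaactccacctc

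GGGCGG occurred 3 times before Aplp2, 2 times before Psen2, and 1 time before Sorl1, App and Aplp1. It was not found before Apoe, and 32.74% of 32851 promoters of the same length held it. CCAAT occurred 2 times before Aplp2 and was not found before the other 5 genes, against 33.85% of all promoters. Neither TATAAA (12.37% of all promoters) nor TGACGTCA (1.546%), on either strand, was found before any of the 6. The motifs do not overlap one another in the sequences shown. The window before Apoe held 8 CG dinucleotides and that before Sorl1 held 26, with 15 to 23 before the other 4 and a median of 6 over all promoters.

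The largest differences among these genes were between ages. From PND 5 to 12 months in WT mice after oil, Sorl1, Clu, Apoe, App, Aplp2 and Aplp1 rose, Mapt fell, and Psen2 and Bace1 did not pass the test. Over all genes 78.7% of 15471 were called in this comparison, so the 7 of 9 called is close to that share. After subtraction of the fitted technical terms, the ranges of the ages did not overlap for these 7, nor for 54.9% of all genes tested. Levels below are printed after the same subtraction. In the deposited values, which carry the removal made without groups, the ranges of the ages overlapped for each of these 7. Clu was there at 6.37 to 8.92 at PND 5 and at 8.07 to 9.14 at 12 months. Mapt was at 18.87 to 21.39 and 18.62 to 19.42. The median difference was 0.85 over the 9 genes and 0.01 over all genes tested.

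Mapt, whose protein tau stabilizes axonal microtubules, had a lowest, median and highest level of 21.19, 21.38 and 21.51 in the 12 WT mice of PND 5 after oil, and of 18.94, 19.08 and 19.22 in the 9 WT mice of 12 months. After the subtraction the groups lie far apart. The difference was −2.32 ± 0.05 (SE), a 5.01-fold lower value at 12 months, with an adjusted p of 1.58e-51 (limma). It was −2.39 in Het mice after oil, −2.27 in WT mice after DM and −2.33 in Het mice after DM. The tables are per gene, so the tau isoforms, whose balance shifts as the brain matures, are not told apart.

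Sorl1 had levels of 4.59, 5.49 and 5.88 (lowest, median, highest) at PND 5 and of 7.53, 7.88 and 8.32 at 12 months in WT mice after oil. After the subtraction no mouse of 12 months reached down to the level of PND 5. Sorl1 rose 5.66-fold, from a mean of 5.39 to 7.89 (standard error of the log2 difference 0.18, adjusted p = 4.87e-21, limma). Clu rose by 2.42 ± 0.08 (adjusted p = 1.55e-41), from between 6.08 and 6.44 at PND 5 to between 8.42 and 8.83 at 12 months. Apoe, the main lipid carrier of the brain, rose by 1.28 ± 0.11 (adjusted p = 4.7e-17), from between 9.06 and 9.60 to between 10.22 and 10.88. After the subtraction the ranges of the ages were separate in these 3 genes, and Sorl1 and Apoe were spread more widely within an age than Clu. In the deposited values of the same mice the SD at PND 5 was 0.84 for Clu, 0.75 for Sorl1 and 0.52 for Apoe. At 12 months it was 0.37, 0.44 and 0.37.

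The amyloid precursor family rose less. App rose from levels of 12.76, 13.02 and 13.14 (lowest, median, highest) to 13.88, 13.93 and 14.07, a difference of 0.96 ± 0.07 (1.94-fold, adjusted p = 7.86e-20). Aplp2 rose by 0.85 ± 0.05 and Aplp1 by 0.66 ± 0.05, also with no overlap between the ages after the subtraction. The secretases stayed near their early level in WT mice after oil: the difference was 0.09 ± 0.06 for Psen2 (adjusted p = 0.148) and −0.04 ± 0.06 for Bace1 (adjusted p = 0.585), with overlapping ranges. In the other 3 groups the age difference was 0.79 to 0.81 for App and −0.14 to −0.21 for Bace1.

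**Figure D1:**
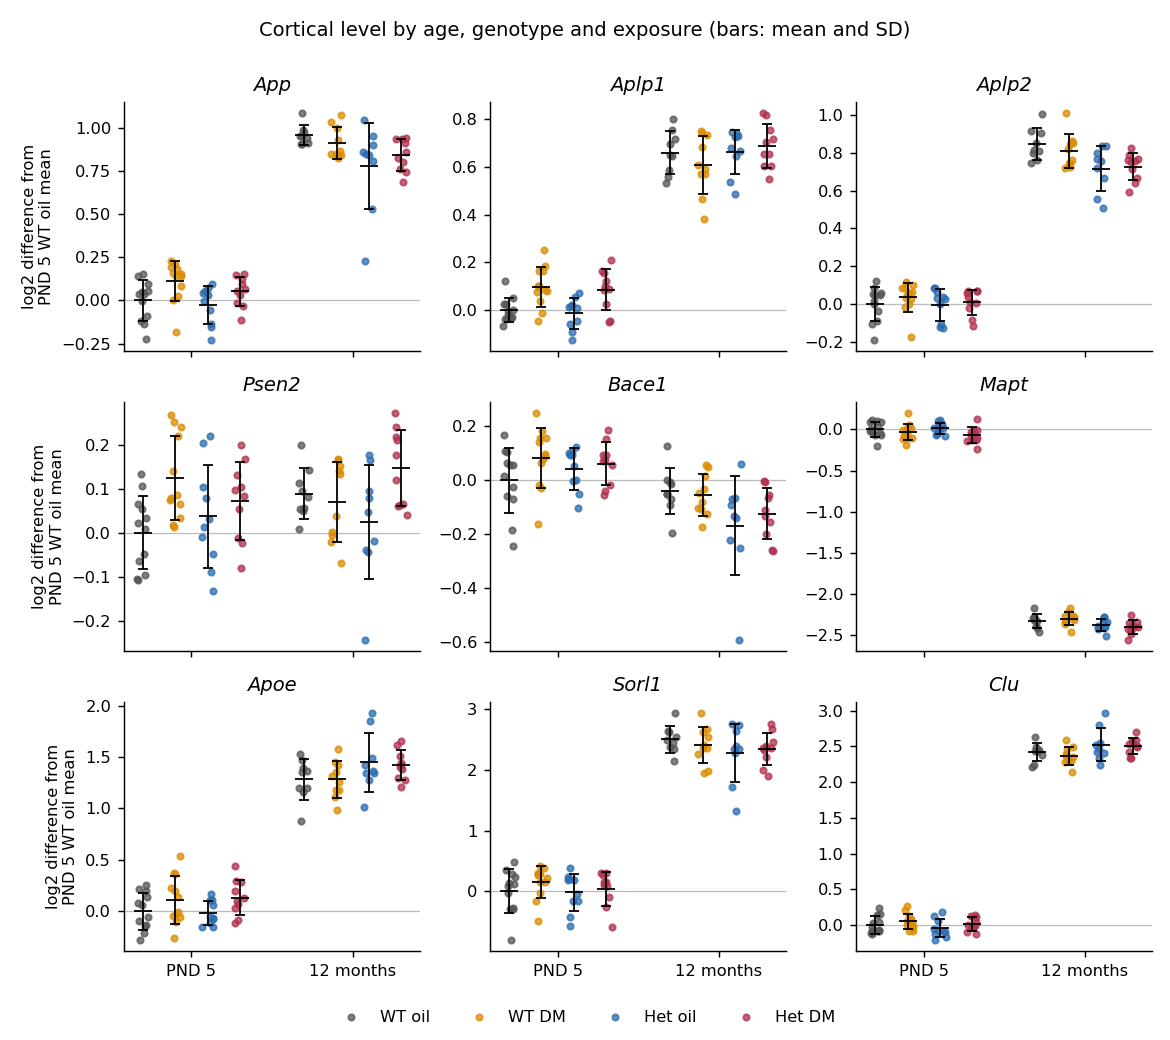
Level of each of the 9 genes in every mouse of PND 5 and 12 months, as the log2 difference from the mean of the WT oil group at PND 5 (vertical axes, scaled per gene), for 4 groups per age (points, mice; bars, mean and SD). After subtraction of the fitted technical terms, Mapt lies about 2.3 lower at 12 months in all 4 groups. In the same values 6 genes lie higher, and Psen2 and Bace1 overlap between ages.

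Mice of both sexes and 2 dissectors entered at PND 5, and males of 1 dissector at 12 months. Restricted to males of that dissector at both ages, which leaves 2 WT pups after oil at PND 5 against 9 WT mice at 12 months, the same 7 genes were called with the same directions, at −2.31 for Mapt, 2.51 for Sorl1, 2.33 for Clu and 0.88 for App. Cell type markers moved with age as well: the 7 myelin genes tested rose with a median of 4.70, all 10 microglial genes rose with a median of 1.89, 6 of 8 astrocyte genes rose (median 0.84), 7 of 10 neuronal genes rose (median 1.23), and the 4 genes of immature neurons fell with a median of −4.12. Their part in the differences of the 9 genes was not tested.

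The other genes of the pathway moved in both directions with age. So did all genes tested: of 15471, 6096 were called as higher and 6079 as lower (78.7% called). The counts of genes that rose and fell in the lists below are of called genes. Whether a list departs from the share of all genes was not tested. Of 9 tested genes of gamma-secretase and other App proteases, 2 rose and 7 fell (median −0.37). Adam10 (−0.45 ± 0.04) and Adam17 (−0.55 ± 0.05), which cut App at the alpha site, and Aph1b of gamma-secretase (−0.40 ± 0.04) fell, while Adam9 (0.45 ± 0.04) and the gamma-secretase subunit gene Psenen (0.23 ± 0.07) rose. Of 18 genes of App adaptors and trafficking, 9 rose and 7 fell. Itm2c (2.75 ± 0.04) and Itm2b (1.37 ± 0.06), whose proteins bind App, and the sorting receptor Sort1 (1.63 ± 0.08) rose, and the endocytic adaptor Picalm (−0.59 ± 0.04), the App adaptor Apba1 (−0.74 ± 0.06) and the retromer subunit Vps29 (−0.30 ± 0.06) fell.

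Of 13 genes of amyloid and lipid clearance, 7 rose and 5 fell. The lipid transporter Abcg1 rose by 2.23 ± 0.06, Lcat, which esterifies cholesterol on lipoproteins, by 1.31 ± 0.11 and the protease Ece1 by 0.69 ± 0.06. The Apoe and reelin receptor Lrp8 was at −1.58 ± 0.05, Lrp2 at −0.89 ± 0.14 and Abca1, which loads lipid onto Apoe, at −0.52 ± 0.07, all called as lower. Of 22 tau kinases, phosphatases and other microtubule proteins, 4 rose and 14 fell (median −0.35). Map6 (−1.34 ± 0.04), Stmn1 (−1.78 ± 0.05) and the kinase Fyn (−1.31 ± 0.04) fell with Mapt, whereas Map1a (1.94 ± 0.08) and the kinases Mark2 (0.45 ± 0.05) and Ttbk2 (0.45 ± 0.08) rose. Of 19 other Alzheimer risk genes, 14 rose and 3 fell (median 0.38), led by Slc24a4 (3.05 ± 0.14), Ptk2b (1.99 ± 0.09) and the microglial phosphatase Inpp5d (1.19 ± 0.08). Those that fell were Mef2c (−0.86 ± 0.11), Plxna4 (−0.61 ± 0.12) and Unc5c (−0.48 ± 0.10).

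The comparison of Het with WT mice asked whether loss of 1 Chd8 allele changed these genes at each age. At 12 months after oil, none of the 9 was called by limma (3 had an unadjusted p under 0.05), against 1.80% of all genes. The lowest adjusted p were those of Aplp2 (−0.13 ± 0.04, 0.0973), App (−0.18 ± 0.06, 0.108) and Bace1 (−0.13 ± 0.05, 0.183). Apoe (0.16 ± 0.09), Clu (0.11 ± 0.07) and Sorl1 (−0.22 ± 0.15) had adjusted p of 0.335 to 0.425. The median difference was −0.07 over the 9 genes and −0.01 over all genes.

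App had a lowest, median and highest level of 13.88, 13.93 and 14.07 in 9 WT mice after oil, and of 13.21, 13.83 and 14.03 in 9 Het mice. The ranges overlap, and the Het group is spread more widely (SD 0.25 against 0.06). Bace1 had levels of 11.62, 11.76 and 11.94 in WT and of 11.22, 11.68 and 11.87 in Het mice, which overlap in the same way.

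Littermates share batch, sex, dissector and litter, so their difference is free of the removal made before deposit. App was lower in the Het mouse of 9 of 9 oil litters, by 0.02 to 0.68, and Bace1 in 9 of 9, by 0.04 to 0.40. Aplp2 was lower in 8 of 9 and Sorl1 and Mapt in 7 of 9, and Apoe was higher in 7 of 9. The sizes were uneven: the 2 oil litters of batch 1 differed by −0.42 and −0.68 for App, whereas the other 7 lay between −0.18 and −0.02.

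The same 2 litters lay outside the other 7 in Sorl1 (−0.72 and −0.81, against −0.36 to 0.11), Clu (0.41 and 0.52, against −0.09 to 0.10) and Bace1 (−0.25 and −0.40, against −0.17 to −0.04). In Apoe they were at 0.65 and 0.46, and the highest of the other 7, which began at −0.19, was near them at 0.40. Without batch 1 the differences after oil were −0.07 for App (adjusted p = 0.47), −0.07 for Bace1 (0.458), −0.07 for Sorl1, −0.08 for Aplp2, 0.05 for Apoe and 0.00 for Clu. In these 2 litters 79 ribosomal protein genes were higher in the Het mouse by a mean of 0.72 and 0.70 (−0.15 to 0.10 in the other 7), astrocyte markers by 0.41 and 0.45 (−0.08 to 0.07), and neuronal markers lower, at −0.14 and −0.22 (−0.14 to 0.03). The difference also ran with transcript length in them, with Pearson's r of −0.43 and −0.34 across 14501 genes, which are not independent replicates, against −0.22 to 0.07 in the other 7. The part of these shifts in the App, Sorl1, Apoe and Clu differences was not tested. Choroid plexus markers were at −3.12 in 1 of these litters (Het minus WT) and at 0.48 in the other, and between −3.38 and 0.60 in the other 7.

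**Figure D2:**
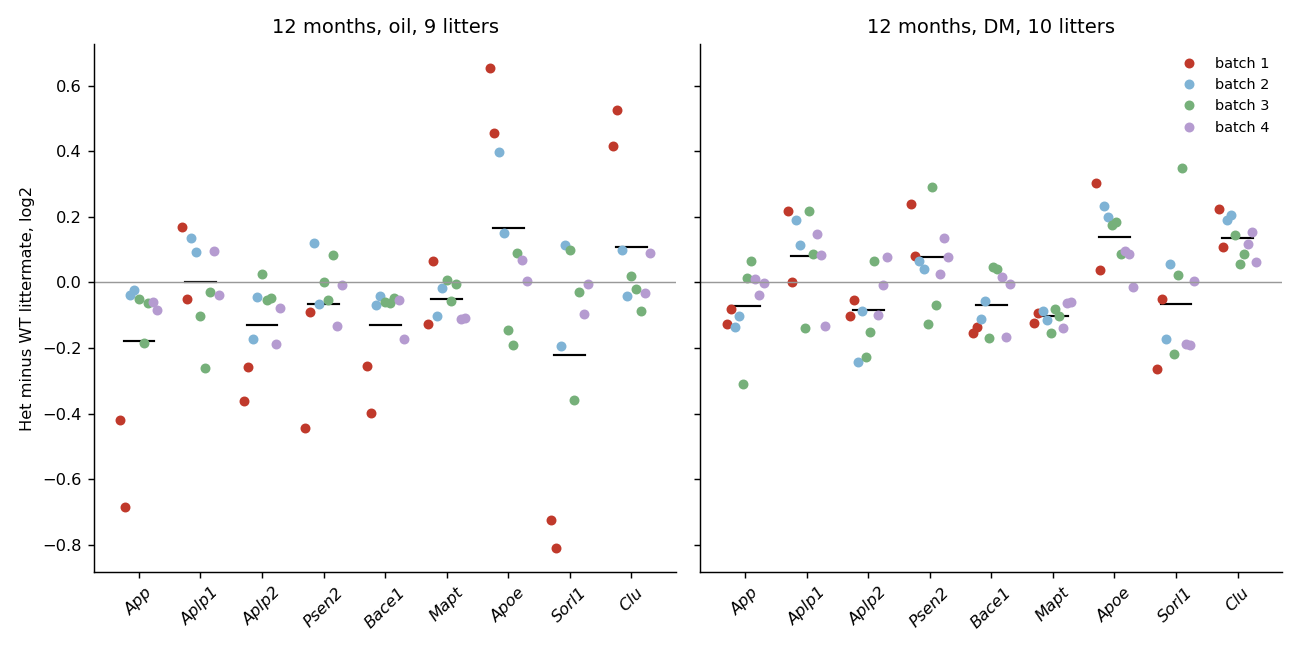
Het minus WT littermate at 12 months for each gene (vertical axis, log2), in 9 oil litters (left) and 10 DM litters (right), coloured by batch, with the mean as a line. The 2 oil litters of batch 1 (red) lie at −0.42 and −0.68 for App, while Mapt lies below 0 and Clu above 0 in all 10 DM litters.

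At 12 months after DM, none of the 9 genes was called either (limma, 3 with an unadjusted p under 0.05), against 3.64% of all genes. Mapt was lower in the Het mouse of 10 of 10 litters, at −0.15 to −0.06, and its differences in the 4 batches were −0.11, −0.10, −0.11 and −0.09. The fit gave −0.10 ± 0.04 with an adjusted p of 0.149. Clu was higher in 10 of 10 litters, at 0.06 to 0.23, with 0.13 ± 0.06 in the fit (adjusted p = 0.203). These are small but even shifts: the levels of Mapt overlapped between WT (18.93, 19.10 and 19.22) and Het mice (18.84, 19.00 and 19.14).

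In the DM litters Apoe was higher in 9 of 10 (0.14 ± 0.09), App lower in 7 of 10 (−0.07 ± 0.06), Aplp2 lower in 8 of 10 (−0.08 ± 0.04), and Psen2 and Aplp1 higher in 8 of 10 each (0.08 for both). Ribosomal protein genes differed by −0.09 to 0.25 in these litters and astrocyte markers by −0.10 to 0.19. Their part in the Mapt and Clu differences was not tested. The 2 DM litters of batch 1 lay at −0.13 and −0.08 for App.

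The call depended on how the litter was treated and on whether the 2 ages shared 1 estimate of the spread. With the litter as a block over both ages, 15.5% of all genes were called after oil, among them App (adjusted p = 0.00324), Bace1 (0.00356), Aplp2 (0.00483) and Sorl1 (0.0336) as lower and Clu (0.0481) as higher. After DM 14.7% of all genes were called in that fit, with Mapt (0.00244) as lower and Clu (0.0107) as higher. That fit holds each litter as a fixed term and takes 1 estimate of the spread for PND 5 and 12 months alike. A litter correlation (0.339 over both ages, −0.0543 in the 12 month litters alone) entered only comparisons of exposure or age. With the 12 month mice on their own and the litter as a block, 2.04% of genes after oil and 4.51% after DM were called. In that fit Bace1 (adjusted p = 0.0692), Aplp2 (0.0767) and App (0.0791) missed the threshold after oil, and Mapt (0.0294) passed it after DM, where Clu (0.102) did not.

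At PND 5 none of the 9 genes was called between genotypes after oil, where 0.582% of all genes were, or after DM, where 0.239% were, and none had an unadjusted p under 0.05 in either (limma). The differences ran from −0.05 for Clu to 0.04 for Bace1 after oil. After DM they ran from −0.11 for Sorl1 to 0.02 for Apoe. In pairs of 1 litter and sex, Mapt was lower in the Het pup of 9 of 9 pairs after DM (−0.15 to −0.01) and of 5 of 10 pairs after oil, and App was lower in 9 of 10 pairs after oil and 7 of 9 after DM. The pairs came from 7 DM and 6 oil litters. Some litters gave a male and a female pair, so the pairs are not independent.

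Whether the genotype difference itself depended on age was tested after oil: none of the 9 genes, and 0% of all genes, was called (2 of the 9 had an unadjusted p under 0.05, limma).

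In untreated mice of 18 months the values come from a separate table with a narrower spread. The 11 mice came from 6 litters, of which 4 held both genotypes and 1 of these gave 2 WT mice, and the fit takes the mice as independent. With the litter as a block, 3 genes were called and none of the 9. None of the 9 genes was called (limma, 2 with an unadjusted p under 0.05), against 0.146% of 16419 genes. App was at 15.54, 15.55, 15.55, 15.55, 15.56 and 15.62 in the 6 WT mice, and at 15.41, 15.47, 15.49, 15.51 and 15.51 in the 5 Het mice. Every Het mouse lay below every WT mouse, and the ranges were likewise separate for 2.42% of all genes tested. The difference was −0.08 ± 0.03 (adjusted p = 0.302).

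Aplp1 was at 14.33, 14.33, 14.34, 14.35, 14.36 and 14.38 in WT and at 14.21, 14.22, 14.25, 14.30 and 14.31 in Het mice. These ranges do not overlap either (−0.09 ± 0.03, adjusted p = 0.278). Aplp1 did not lie lower in Het mice of 12 months, at 0.00 ± 0.04 after oil and 0.08 ± 0.04 after DM. The other 7 genes overlapped between genotypes, with Mapt at −0.05 ± 0.03, Sorl1 at −0.10 ± 0.05 and Clu at 0.06 ± 0.04. Only 1 of the 9 genes, Clu, lay higher in Het mice.

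**Figure D3:**
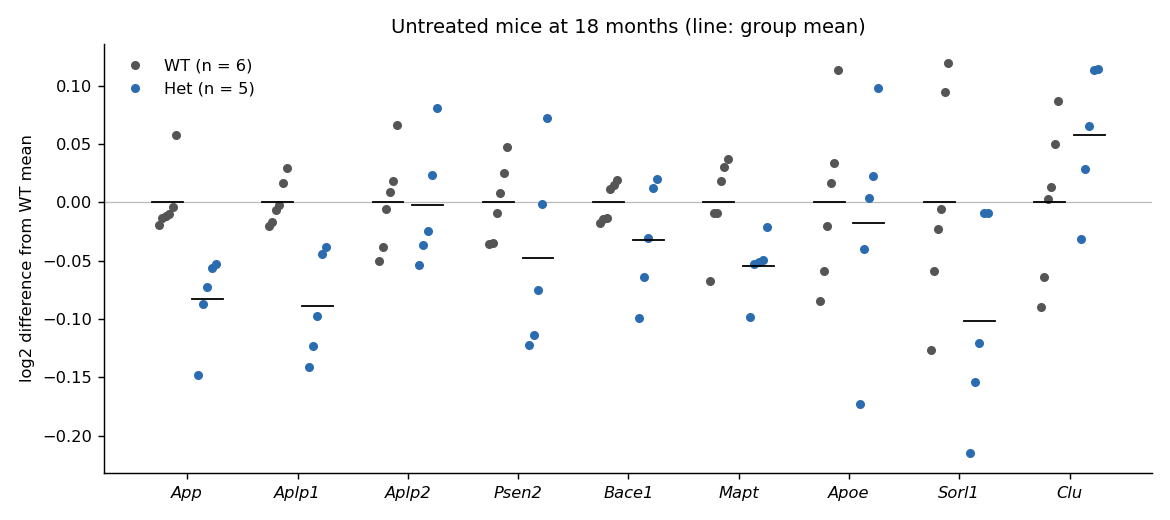
Level of each gene in the 6 WT and 5 Het untreated mice of 18 months, as the log2 difference from the WT mean (vertical axis; points, mice; lines, group means). All 5 Het mice lie below all 6 WT mice for App and for Aplp1, and the other 7 genes overlap.

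**Figure D4:**
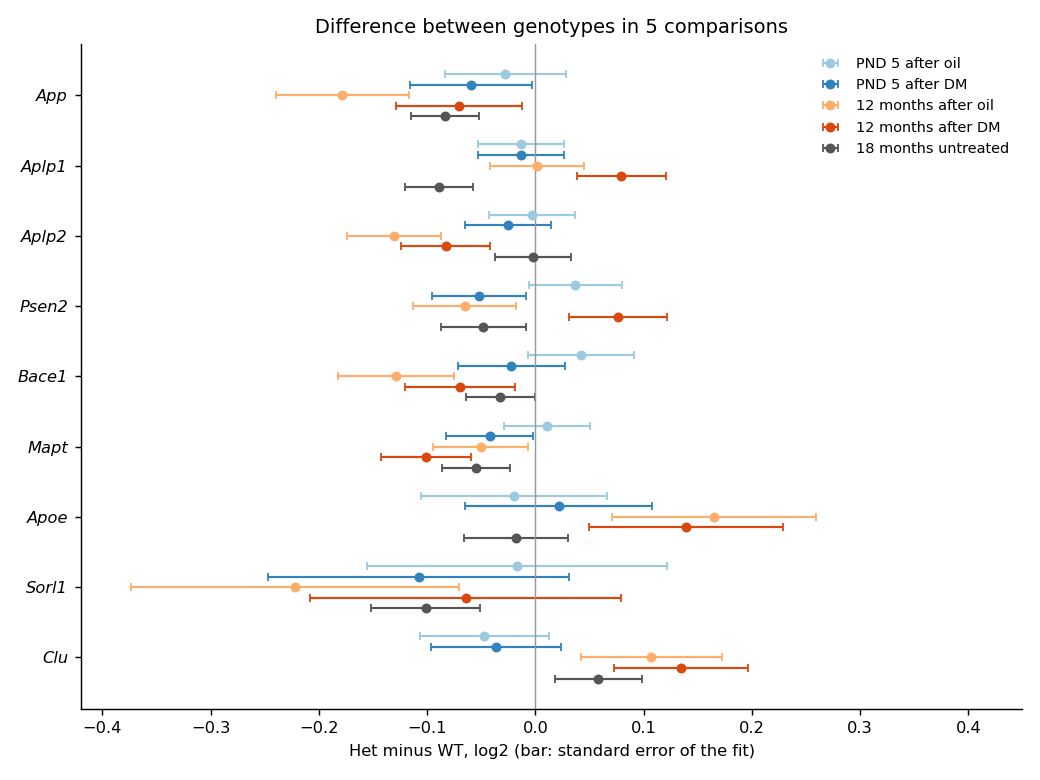
Het minus WT difference of each gene (horizontal axis, log2, with the standard error of the fit) in 5 comparisons of genotype. App lies below 0 in all 5, from −0.03 at PND 5 after oil to −0.18 at 12 months after oil, and no difference was called.

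Exposure was compared within each genotype. At 12 months, long after exposure had ended, none of the 9 genes differed between DM and oil by the test (limma), with 0% of all genes called in WT mice and 0.00646% in Het mice. None of the 9 had an unadjusted p under 0.05 in WT mice and 1 had it in Het mice, Psen2 (0.12 ± 0.05). The differences in WT mice ran from −0.09 for Sorl1 to 0.03 for Mapt. The difference of the genotype effects between DM and oil was not called for any of the 9, nor for any gene (0%), at 12 months or at PND 5 (0%). Among the 9, 1 gene at 12 months and none at PND 5 had an unadjusted p under 0.05 in this test.

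At PND 5, 8 of the 9 genes lay higher after DM than after oil in WT pups and 8 of 9 in Het pups, Mapt being the exception in both, and none was called (limma, 3 and 1 with an unadjusted p under 0.05). Over all genes 8.40% were called in WT and 2.04% in Het pups. Psen2 had levels of 8.31, 8.44 and 8.55 after oil and of 8.43, 8.50 and 8.69 after DM in WT pups, which overlap (0.12 ± 0.04, adjusted p = 0.0559). Aplp1 lay 0.10 ± 0.04 higher in WT (adjusted p = 0.0987) and 0.10 ± 0.04 in Het pups (0.192), and Apoe 0.11 ± 0.09 and 0.15 ± 0.09. With PND 5 fitted on its own, with or without the litter as a block, 6 of the 9 lay higher in WT and 5 in Het pups. In the fit with the block Sorl1 was at −0.07 in WT and −0.11 in Het pups, Aplp2 at −0.02 and −0.03, and Bace1 at −0.04 in Het pups. Apoe was at 0.20 in WT and 0.24 in Het pups in that fit, and Mapt at −0.07 and −0.12, none of them called. Without batch 1 there were 6 and without batch 2 there were 5 genes higher in Het pups.

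Markers of other cells lay higher after DM in the same pups. The 4 genes of meningeal fibroblasts had a median difference of 1.31 in WT (3 called) and 1.09 in Het pups (1 called), the 4 of mural cells 0.22 (2 called) and 0.20 (1 called), and the 10 of microglia 0.14 (3 called) and 0.12 (1 called). The mean level of the meningeal list lay between 5.05 and 7.23 after oil and 5.87 and 8.59 after DM in WT pups, and between 4.11 and 7.48 and 4.21 and 8.41 in Het pups, with overlap in both. Their part in the exposure differences was not tested. The pups came from 6 oil and 7 DM litters, and each litter had 1 exposure. With the litter as a block 0 of 15471 genes were called in WT pups and 4 in Het pups.

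Among the wider lists, few genes were called in these comparisons. Of 19 other risk genes, Zcwpw1, a histone reader, was higher in Het mice at 12 months (0.35 ± 0.07, adjusted p = 0.00697) and at PND 5 (0.34 ± 0.07, 0.00202) after oil. It lay at 0.16 ± 0.07 and 0.18 ± 0.07 after DM, not called. Ttbk1, a tau kinase, was higher (0.25 ± 0.06) and Aph1b lower (−0.11 ± 0.03) in Het mice at 12 months after DM. Neither passed with the 12 month mice on their own and the litter as a block. In that fit 1 of the 19 other risk genes was called as higher and 1 as lower in Het mice after DM. Grn, which encodes the lysosomal protein progranulin, was lower in Het mice at 18 months (−0.17 ± 0.03, adjusted p = 0.0431, limma). That call was lost with the litter as a block (−0.18 ± 0.04, adjusted p = 0.0956). It was also lost on leaving out any 1 mouse other than Het replicate 3 (adjusted p 0.0475 to 0.144 over the 11 fits), with differences of −0.16 to −0.18.

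After DM at PND 5, Grn was higher in WT (0.17 ± 0.04) and Het pups (0.17 ± 0.04), as were Rin3 (0.33 ± 0.08 and 0.31 ± 0.08) and, in WT pups, Mark2 (0.12 ± 0.04). In Het pups Itm2c (0.13 ± 0.03) and Apba3 (0.30 ± 0.09) were higher. Stmn1 (−0.17 ± 0.04 and −0.14 ± 0.04) and Rtn4 (−0.11 ± 0.04 and −0.15 ± 0.04) were lower in both genotypes, and Vps29 in WT pups (−0.15 ± 0.05). None of these exposure calls was made with PND 5 fitted on its own and the litter as a block.

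Within groups, App, Bace1, Sorl1 and Aplp2 varied together as a set, and Apoe and Clu as another that ran against it. Over the residuals of the 82 mice of PND 5 and 12 months, after group and technical terms, App varied with Bace1 (Pearson's r 0.88), Sorl1 (0.86) and Aplp2 (0.81). Mapt stood closer to this set (0.50 to 0.60 with its 4 members) than Psen2 (0.35 to 0.43). Apoe varied with Clu (0.84) and against Mapt (−0.78), Sorl1 (−0.65) and App (−0.65). Aplp1, unlike Aplp2, lay near 0 with App (−0.02) and on the side of Clu (0.42) and Apoe (0.37).

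Of the 36 pairs, 19 had an r above 0. Both sets were seen at each age: App with Bace1 gave 0.87 at 12 months and 0.91 at PND 5, and Apoe with Clu gave 0.91 and 0.75. The opposition of App to Clu was −0.79 at 12 months and −0.29 at PND 5. These are descriptions over mice that share litters and batches, and RNA integrity and depth of the mice could not be taken from the values. How often pairs drawn from all genes reach such r values was not tested. The residuals at 12 months include the oil litters of batch 1. Their Het minus WT differences in App, Sorl1, Bace1 and Clu lay outside those of the other oil litters, as given above. The part of these litters in the r values was not tested. Among the genes most like App over the same residuals, of 15470 compared, were Spock1, Pcsk2, Clstn3 and Sv2a (each r 0.94). They lay above the highest r of the 36 pairs (App with Bace1, 0.88). The 5 most like Apoe were Mlc1 (0.88), Cst3, Axl, Tbc1d9b (each between 0.87 and 0.88) and Aldoc (0.87). Aldoc is in the list of astrocyte markers.

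**Figure D5:**
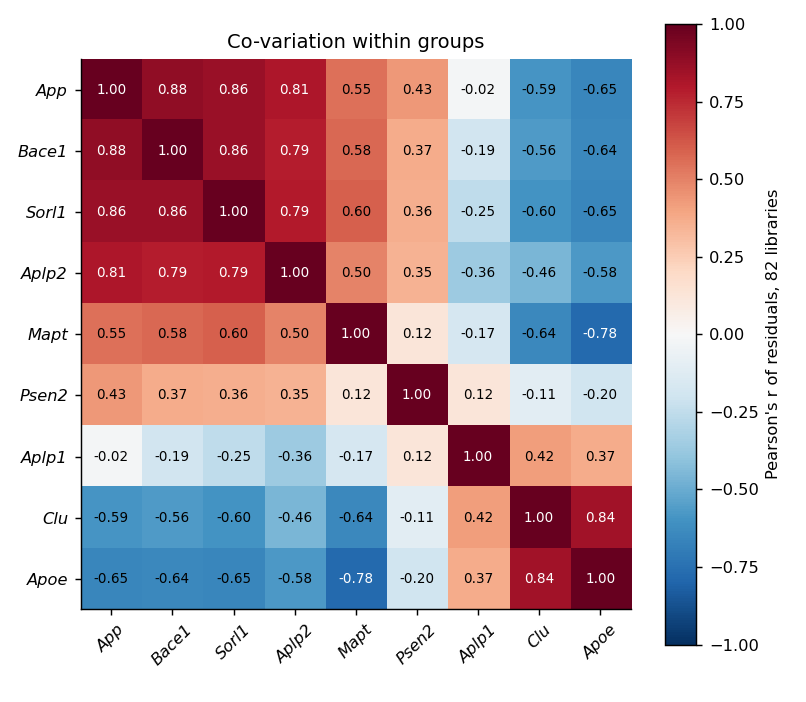
Pearson's r between each pair of the 9 genes over the residuals of 82 mice (both axes, genes; colour and number, r). App, Bace1, Sorl1 and Aplp2 form 1 set (0.79 to 0.88), Apoe and Clu another (0.84), and the sets run against each other (−0.46 to −0.65).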

How the data were processed

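Per the study's methods, the authors filtered reads (FASTX toolkit), trimmed them (cutadapt 1.12), aligned them to mm10 (STAR 2.5.2b), quantified transcripts (Salmon) and transformed gene counts with DESeq2. The deposited values are on the log2 scale of that variance-stabilizing transformation, and the methods name a correction for batch with limma. In the deposited table of 82 libraries a regression without groups gave slopes of 0 for all genes on sex, dissector, batch number and litter rank, from which the removal of these 4 terms was inferred, and one with groups gave slopes of up to 6.04 (dissector). No counts were used here, so the depth per library is unknown, and precision rests on the number of mice.

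Differences were fitted with limma 3.58.1 in R 4.3.3, with 8 groups, batch, sex, dissector and litter rank as terms (genotype and litter rank at 18 months). The filter on a mean level of 6 was replaced by leaving out genes with tied littermates (difference under 1e-06), since the removal moves each mean. This kept 15471 and 16419 of 24528 genes. P-values were adjusted by Benjamini-Hochberg over all of them, and 0.05 was the threshold. Levels are printed after subtraction of the fitted technical terms. On simulated data for genotype at 12 months after oil (15471 genes), the fit gave the same differences with and without such a removal and called 44% of changes of 0.25 and 93% of changes of 0.5. The simulated mice were independent with 1 spread per gene in all groups, so these shares do not cover correlated littermates or uneven spreads.

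Litters pair the mice per the labels: residuals of 74 littermate pairs had a median correlation of 0.191, against −0.0333 for other pairs of an age. Alternatives were filters, centring, weights, an intensity trend, a litter block, each age on its own, and leaving out batches or mice. The 9 genes, the wider lists and the tests were chosen with earlier results of these data known. The genes named are the 9, Chd8, up to 3 called genes per list, direction and comparison with the smallest adjusted p, and the 5 genes most like App and Apoe, of which 1 is not reported here. Promoters come from RefSeq, searched with Python 3 for 4 motifs.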

Additional observations from a re-analysis of the deposited data

Results flagged for a closer look

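Of 72 groups of 4 to 10 mice examined over the 9 genes, 4 held a mouse far from the others of its group, and chance gives about 1 in 20. App was at 14.07 in a WT male of 12 months after oil (next highest 13.97) and at 15.62 in an untreated WT male of 18 months (next highest 15.56). Aplp2 was at 12.70 in a WT male of 12 months after DM (next highest 12.55). Bace1 was at 11.22 in a Het male of 12 months after oil, from a litter of batch 1 (next lowest 11.56).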

How the results depend on the processing

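Across 1431 values of single genes under the alternatives, 1408 kept their side of the threshold, 23 became called and 0 lost a call. The sign changed for 78 values, none of which was called in either fit, such as Clu in genotype at 12 months after oil (−0.01 with sample weights). The 7 age calls held under every alternative run for them. Among the largest changes were those with the litter as a block, which pairs the mice for genotype but not for exposure. With the litter block over both ages, 5 members were called after oil and 2 after DM at 12 months, and genes called became 2402 (oil) and 2272 (DM) at 12 months, 215 at PND 5 after oil, 0 (WT) and 4 (Het) for DM at PND 5, 24 for genotype by age and 3 at 18 months, from 279, 563, 90, 1299, 316, 0 and 24. With each age on its own and the block, 1 member was called at 12 months after DM, and genes called were 277 at PND 5 after oil, 72 (WT) and 0 (Het) for DM at PND 5, and 0 for DM in Het mice at 12 months, from 1. With each age on its own and no block, 3 members (oil) and 2 (DM) were called for genotype at 12 months and 1 (WT) and 2 (Het) for DM at PND 5, with 1162, 1232, 162 (genotype at PND 5 after oil), 1331 (DM in Het pups) and 0 (DM in Het mice of 12 months) genes called.

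With sample weights, 3 members (WT) and 2 (Het) were called for DM at PND 5, and genes called were 2902 and 1377 there, 1003 for genotype at 12 months after DM, 261 and 78 for genotype at PND 5 after oil and DM, 45 at 18 months, 6 for DM in WT mice of 12 months, 1 for genotype by DM at 12 months and 3 for genotype by age. With a mean level of at least 6, 1 member (Psen2) was called for DM in WT pups, and genes called were 2 for genotype by age and 0 for DM in Het mice of 12 months. The intensity trend and the centring gave 1 gene each for genotype by age, and no filter gave 195 for DM in Het pups and 1 for genotype by DM at PND 5.

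Without batch 1, genes called were 116 for genotype at 12 months after oil, 97 at PND 5 after DM, 752 (WT) and 0 (Het) for DM at PND 5 and 1 for DM in WT mice of 12 months. Without batch 2 they were 69 and 127 for genotype at 12 months, 15 and 0 at PND 5 (oil and DM), 62 and 2 for DM at PND 5 and 0 for DM in Het mice of 12 months. Without batch 3 they were 1104 and 173 at 12 months, with 1 member (Aplp2 after oil), 33 and 4 at PND 5, and 384 for DM in WT pups. Without batch 4 they were 17 and 264 at 12 months, 193 for DM in Het pups and 0 for DM in Het mice of 12 months. Leaving out single mice at 18 months gave 3 to 30 genes and 0 members called. The cause of these changes was not tested. With the depth unknown, small differences such as those of Mapt and Clu rest on 9 or 10 litters per exposure.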
